A study of Homo sapiens with 15 samples.

Results

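The genes described here are 45 interferon-stimulated genes, including the 5 guanylate-binding proteins GBP1 to GBP5. They were taken by symbol from a fixed list that was chosen with earlier results of these data known. All 45 were found in both deposited gene count tables, which list 59424 genes for IMR90 and 59410 for Huh7. The study sequenced RNA of senescent human cells after short hairpin RNA (shRNA) against THBD, the gene of thrombomodulin, a membrane protein that binds thrombin. IMR90, a lung fibroblast line labelled with senescence induced by HRAS G12V, had 3 control libraries with a non-targeting hairpin (shNTC1) and 6 shTHBD libraries in sets of 3 that the titles number 1 and 2. Long passage of IMR90 to replicative senescence appears in the growth protocol too, and whether it applies to these libraries is not stated. Huh7, a hepatocyte-derived carcinoma line made senescent with palbociclib, an inhibitor of the kinases CDK4 and CDK6, had 3 control (PalboNTC) and 3 shTHBD (Palbo53925) libraries. All 15 libraries thus carry a hairpin and come from cells treated to become senescent, and no proliferating or uninfected cells are compared here. The labels do not name the hairpin sequences or say that replicates were separate cultures, so a p-value here weighs a difference against a spread that may be technical.

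Interferons are secreted proteins that bind paired receptors on the cell surface, where the kinases JAK1, JAK2 and TYK2 phosphorylate transcription factors of the STAT family. The complex that holds STAT2 and IRF9 binds the interferon-stimulated response element (ISRE), other STAT dimers bind the gamma-activated site (GAS), and the genes next to these elements encode proteins that sense, bind or degrade viral nucleic acid, block entry or attract leukocytes. Senescent cells are known to express many of these genes as part of their secretory and inflammatory programme.

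THBD itself did not follow its label in every group. Levels are given as CPM, the count of a gene scaled to library size, and fold changes as log2 values. In IMR90 THBD had 16.5, 18.8 and 19.99 CPM in the control libraries and 10.5, 11.5 and 11.4 CPM in set 2. In the libraries labelled shTHBD set 1 it had 39.4, 36.6 and 37.3 CPM, above every control library (log2 fold change 1.09 ± 0.08 SE, adjusted p = 1.2e-20), so a direction drawn from set 1 below refers to libraries whose targeted gene goes against the label. In Huh7 only 1 control library held THBD counts (6), and the label could not be checked there. Total counts per library ran from 18256755 to 21509211 in IMR90, between 19328176 and 20020676 in Huh7 control libraries and between 22479132 and 25236178 in Huh7 shTHBD. All 8 fibroblast markers passed 5 CPM in IMR90, and all 10 hepatocyte markers did in Huh7. The summed fibroblast markers ran from 12457 to 12630 CPM in set 2, against 6226 to 6317 CPM in the control and 4449 to 4557 CPM in set 1, and none was at 0. In Huh7 the summed hepatocyte markers ran from 7296 to 7535 CPM in the control and from 5130 to 5318 CPM in shTHBD, and none was at 0. FGB, the most abundant of them, went against the sum (means of 2309 and 2606 CPM). In the same libraries the summed fibroblast markers ran from 1059 to 1107 CPM in the control and from 1681 to 1743 CPM in shTHBD, where THY1 was at 0, and the epithelial markers from 1117 to 1204 and from 803 to 813 CPM. The part of these shifts in the results below was not tested. Of the 10 leukocyte markers none reached 5 CPM in IMR90, where CD3E was at 0 in all 9 libraries, and 1 (LYZ) did in Huh7.

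The promoters of the members were searched for the ISRE and the GAS. The list was drawn up as interferon-stimulated genes, so the shares of promoters with a match describe the list and not these libraries. RefSeq promoter windows of GRCh38.p14, running from 250 bases before to 50 after the start site, were matched for 34 of the 45 members. The word GAAANNGAA, a core of the ISRE, was searched on both strands (on the reverse strand it reads TTCNNTTTC) and was found in 22 of these 34 windows (64.71%), against 2264 of 27305 promoters (8.29%). The word TTCNNNGAA, the GAS, was found in 9 of 34 (26.47%), against 2152 of 27305 (7.88%). Matches to one word can overlap each other and those of the other word, as in IFI27, and a match is a description of the letters and not evidence of binding. These 6 stretches are shown because their genes went different ways below although each carries the ISRE core, which is in capitals. They are read 5′ to 3′ on the gene's strand, with IFIT1 at chr10:89392506-89392544 (plus strand), OAS3 at chr12:112938447-112938473 (plus strand), ISG15 at chr1:1013381-1013419 (plus strand), IFITM3 at chr11:320872-320910 (minus strand), GBP1 at chr1:89065311-89065349 (minus strand) and CXCL10 at chr4:76023695-76023733 (minus strand).
IFIT1: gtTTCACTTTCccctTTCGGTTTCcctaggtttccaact
OAS3: cggagagccgggcggGAAAACGAAacc
ISG15: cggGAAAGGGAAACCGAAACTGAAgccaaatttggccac
IFITM3: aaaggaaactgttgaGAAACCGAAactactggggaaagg
GBP1: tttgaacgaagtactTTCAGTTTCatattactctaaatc
CXCL10: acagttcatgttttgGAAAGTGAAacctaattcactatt

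In the control cells the members spanned a wide range of levels. Per gene length, as TPM (transcripts scaled to library size and gene length), IFITM3, a membrane protein that hinders virus entry, was highest in the IMR90 control at 242 ± 5.07 (SD, n = 3). It was followed by ISG15, a ubiquitin-like modifier, at 150 ± 5.39 TPM and by IFI6 at 104 ± 6.57 TPM. The RNA-editing enzyme ADAR (78.5 ± 0.43 TPM) and STAT2 (76.6 ± 0.72 TPM) came next and lay close together. In the Huh7 control IFI6 led with 1466 ± 173 TPM, ahead of IFITM3 with 794 ± 41.3 and ISG15 with 264 ± 29.2 TPM. GBP1 (26.3 ± 1.34 TPM), IFI35 (26.2 ± 3.08 TPM) and GBP2 (25.4 ± 0.70 TPM) differed by less than their spread in Huh7. Some members were found almost only in 1 line. IFI44 had 155 to 202 counts in the IMR90 control and at most 1 in Huh7, whereas GBP4 had 0 counts in every IMR90 library and 34 to 47 in the Huh7 control. The lines were counted in separate tables whose gene lengths differ for some members, so TPM does not compare directly between lines and no test was made. IFITM3 had a mean of 193 CPM in the IMR90 control and 263 CPM in the Huh7 control, closer together than its TPM values.

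**Figure D1:**
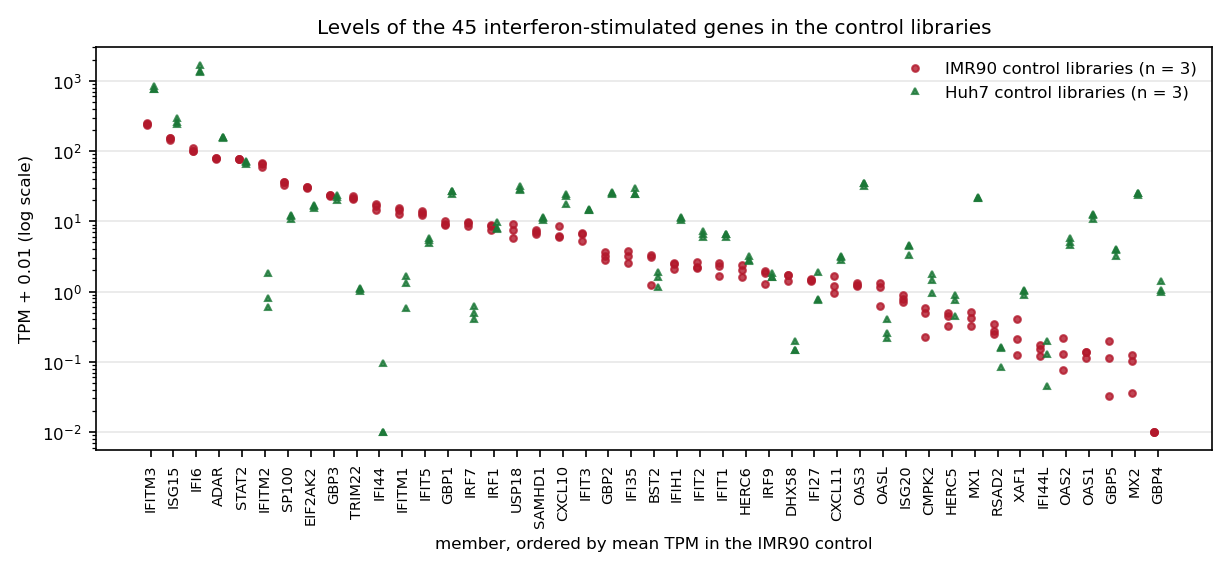
TPM + 0.01 on a log scale in each of the 3 control libraries of IMR90 (circles) and Huh7 (triangles), for the 45 members ordered by their mean in IMR90. IFITM3, ISG15, IFI6, ADAR and STAT2 are the 5 highest in both lines, while IFITM2, IFI44, MX1 and MX2 differ widely between lines. The gene lengths used differ between the lines for some members, so heights do not compare directly across lines.

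Of the members that could be tested, 19 to 25 of 36 were lower in the shTHBD libraries than in the control of the same line. A gene was tested where it passed edgeR's filter on low counts, and called at a Benjamini-Hochberg adjusted p under 0.05 in edgeR's quasi-likelihood fit of all genes. In IMR90 36 members were tested. In set 1, 25 of them were lower than control and 3 higher, when 26.5% of all 15410 genes tested were lower, 27.3% higher and so 53.8% called. In set 2, 19 were lower and 6 higher, against 34.1% and 33.2% of all genes (67.3% called). In Huh7, 22 of 36 were lower and 1 higher, when 27.3% of 17474 genes were lower and 25.9% higher (53.1% called). With a filter at 5 CPM the share lower in set 2 lay near that of all genes, with 9 of 20 members lower and 6 higher, against 40.0% of all genes lower and 40.2% higher. Huh7 shTHBD replicate 3 stood apart from replicates 1 and 2 (mitochondrial genes took 9.94% of its counts, against 8.04% and 7.83%), and without it 22 of 36 were lower and 1 higher. In IMR90 the mitochondrial share ran from 5.43% to 5.48% in the control, 5.82% to 5.98% in set 1 and 6.38% to 6.58% in set 2, and its part in the counts was not tested. The median log2 fold change of the tested members was -0.52 in set 1, -0.48 in set 2 and -0.63 in Huh7, and that of all genes -0.00, 0.01 and 0.00. A gene near the filter can pass through the group where it is higher, so these counts describe the tested members and not all 45. In bulk RNA, fewer cells of a type and less RNA per cell cannot be told apart.

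Sets 1 and 2 were compared with the same 3 control libraries, so their values stand side by side and only their direct difference was tested. Between the sets, 11 of 36 members were higher in set 1 and 15 higher in set 2 (33.9% and 35.6% of all genes tested, 69.5% in either direction). IMR90 and Huh7 have controls of their own. Of 29 members tested in both lines, 12 (41.4%) were lower in set 1 and in Huh7, when 9.21% of 12782 genes were lower in both and 9.86% higher, and no member was higher in both. The 12 were ADAR, CXCL11, IFI35, IFI6, IFIH1, IFIT2, IFIT3, IFITM3, IRF1, MX1, STAT2 and USP18. Among them, the set 1 calls of IFI35, IFIT3, IRF1 and USP18 were lost in some other setting. So were the Huh7 calls of CXCL11, IFIH1 and USP18. In set 2 and Huh7, 11 (37.9%) were lower in both, against 18.5% of all genes, and 1 (GBP2) was higher in both, against 16.5%. The 11 include IFI35 and STAT2, whose set 2 calls were lost in some other setting, and IFIH1 and USP18, whose Huh7 calls were. These joint counts were not repeated under the other settings. In either pairing GBP3 was lower in Huh7 and higher in IMR90, and GBP2 was lower in set 1 and higher in Huh7. No other member was called in opposite directions. That makes 2 members (6.9%) with set 1, against 17.8% of all genes, and 1 (3.45%) with set 2, against 11%. The members were lower more often than all genes in set 1, set 2 and Huh7 taken singly, so the joint shares do not show that the lines match gene by gene.

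**Figure D2:**
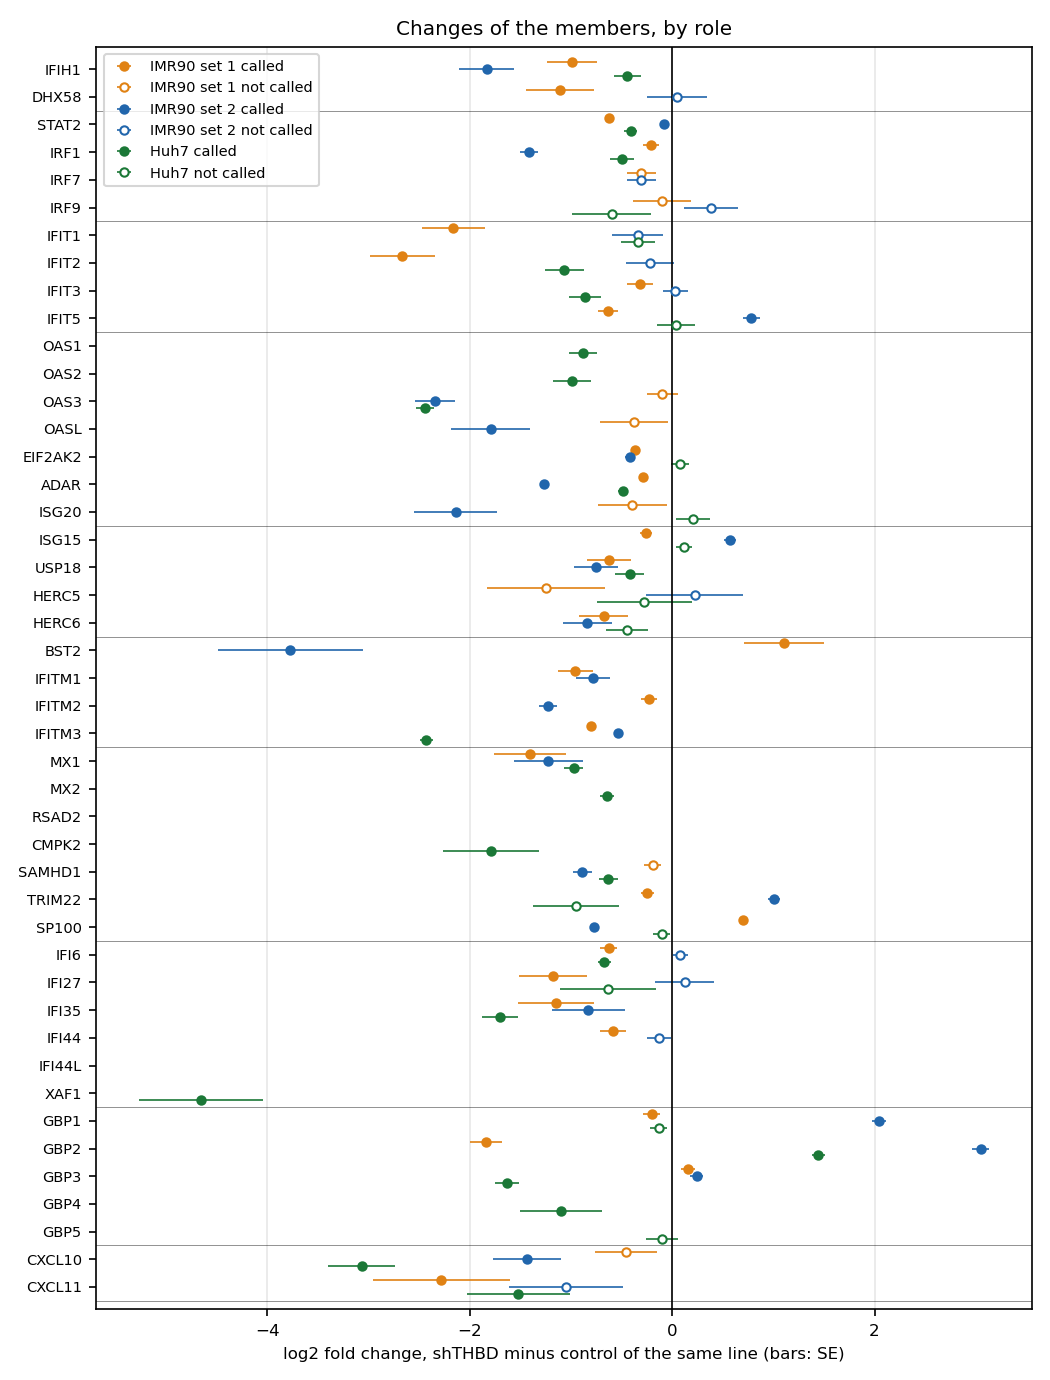
Log2 fold change (shTHBD minus the control of the same line) with its SE for each tested member, grouped by role from RNA sensors at the top to chemokines at the bottom, with filled points called at an adjusted p under 0.05 and open points not called. Most points lie left of 0 in each comparison, and GBP1, GBP2, IFIT5, ISG15 and TRIM22 lie right of 0 in set 2 alone among the IMR90 sets.

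Among the RNA sensors, IFIH1 (MDA5), which recognises long double-stranded RNA, fell in all comparisons. It had 3.61, 3.48 and 2.98 CPM in the IMR90 control libraries, 1.92, 1.40 and 1.57 in set 1 and 1.21, 0.94 and 0.82 in set 2. No library of either set reached the control range, and set 2 was the lower of the sets (set 1 minus set 2, 0.84 ± 0.30, adjusted p = 0.0095). In Huh7 it went from 16.8, 16.4 and 15.1 CPM to 14.5, 10.0 and 11.7 (-0.44 ± 0.13, adjusted p = 0.0056), a call lost without shTHBD replicate 2 (-0.31, adjusted p = 0.053). DHX58 (LGP2), a relative of IFIH1 without signalling domains of its own, fell in set 1 (-1.11 ± 0.34, adjusted p = 0.0038). It was not called in set 2 (0.05 ± 0.29) and had at most 11 counts in Huh7.

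The transcription factors of the response were lower in some comparisons and never called higher. STAT2 had 134.3, 131.5 and 133.2 CPM in the IMR90 control and 85.1, 82.0 and 82.9 CPM in set 1, a fall of every library (-0.62 ± 0.04, adjusted p = 7.9e-24). In set 2 it had 128.8, 135.8 and 135.8 CPM, which overlaps the control; its call there (-0.08 ± 0.04, adjusted p = 0.049) was lost with the replicate block (adjusted p = 0.052), DESeq2 (0.067), the filter at 5 CPM (0.13) and upper-quartile scaling (-0.01), and without control replicate 1 or 3 or set 2 replicate 1. In Huh7 STAT2 fell by 0.41 ± 0.07 (adjusted p = 3.5e-06). IRF1, which binds many of the same promoters, had 29.1, 25.4 and 30.7 CPM in the IMR90 control and 11.6, 10.8 and 11.5 CPM in set 2 (-1.41 ± 0.09, adjusted p = 2.7e-23). Its set 1 libraries (22.8, 21.3 and 26.7 CPM) overlapped the control. The call there (-0.21, adjusted p = 0.021) was lost without control replicate 1 or 3 or set 1 replicate 1 or 2, down to -0.14. With the DESeq2 test it was lost too (-0.20, adjusted p = 0.076). In Huh7 IRF1 went from 18.0, 21.5 and 17.3 CPM to 13.8, 12.5 and 14.8 (-0.50 ± 0.12, adjusted p = 0.00086). IRF7, which amplifies type I interferon production, was not called in set 1 (-0.30 ± 0.14, adjusted p = 0.069) or set 2 (-0.30 ± 0.14, adjusted p = 0.055), although it was called in set 1 with upper-quartile scaling (-0.34) and in set 2 without control replicate 2 or set 2 replicate 2 or 3 (-0.36 to -0.38). IRF9, the DNA-binding partner of STAT2, was called in no comparison (-0.10, 0.39 and -0.60 in set 1, set 2 and Huh7). Of the exon bases of IRF9 42.24% and of IRF1 22.87% are shared with other annotated genes, and the counting of the IMR90 table used no strand, so their reads are less certain.

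The IFIT genes, whose proteins bind foreign RNA ends and which lie within 137.9 kilobases of chromosome 10, were all called lower in set 1 and none was called lower in set 2. IFIT2 had 2.72, 2.57 and 3.21 CPM in the IMR90 control and 0.44, 0.45 and 0.39 in set 1, well below every control library (-2.67 ± 0.32, adjusted p = 3.4e-11). In set 2 its 2.42, 2.77 and 2.56 CPM overlapped the control. IFIT1 had 41 to 64 counts in the control and 9 to 15 in set 1 (-2.16 ± 0.31, adjusted p = 1.1e-08), and 32 to 50 in set 2, where it was not called. IFIT5 went in opposite directions in the sets. It had 15.2, 15.8 and 16.9 CPM in control libraries, 10.7, 10.1 and 8.95 in set 1 and 26.7, 30.6 and 30.2 in set 2, with no overlap between groups (set 1 minus set 2, -1.42 ± 0.09, adjusted p = 3.5e-23). IFIT3 was called lower in set 1 (-0.32, adjusted p = 0.029), a call lost without control replicate 2 or 3 or set 1 replicate 2 or 3 (-0.24 to -0.30). The IFIT3 call was also lost with the DESeq2 test (adjusted p = 0.073) and with no filter on low counts (edgeR adjusted p = 0.057). In Huh7 IFIT2 (7.01, 7.69 and 8.48 against 4.52, 3.96 and 2.80 CPM) and IFIT3 (10.7, 10.9 and 10.3 against 6.39, 5.11 and 6.41 CPM) fell, by 1.06 ± 0.20 and 0.86 ± 0.16. IFIT1 (-0.34 ± 0.17, adjusted p = 0.087) and IFIT5 (0.04 ± 0.19) were not called there, but IFIT1 was without shTHBD replicate 1 (-0.46). Of the exon bases of IFIT2 13.62% are shared with other genes.

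The OAS enzymes make the second messenger that activates RNase L. OAS3 had 6.29, 5.94 and 6.65 CPM in the IMR90 control and 6.30, 5.50 and 5.23 in set 1, which overlap. In set 2 it had 1.26, 1.52 and 1.14 CPM, far below both (against control -2.34 ± 0.20, adjusted p = 1.8e-17). In Huh7 OAS3 was more abundant, with 82.0, 74.3 and 81.0 CPM in the control, and fell to 13.2, 16.2 and 15.04 (-2.44 ± 0.09, adjusted p = 5.8e-21). OAS1 and OAS2 fell in Huh7 by 0.88 ± 0.13 and 0.99 ± 0.19. Both were too low to test in IMR90, where OAS1 had 7 to 10 counts in the control and 0 in the 3 set 2 libraries, at least 2.74-fold lower if 3 counts per library is taken as the floor. OASL, a relative that does not make the messenger, fell in set 2 (-1.79 ± 0.39, adjusted p = 3.9e-05) and was not called in set 1 (-0.38 ± 0.34).

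Other enzymes that act on RNA were lower in set 2 as well. ADAR, which edits adenosine in double-stranded RNA, had 268.1, 269.2 and 269.7 CPM in the IMR90 control libraries, 216.6, 210.5 and 209.7 in set 1 and 116.9, 123.1 and 114.8 in set 2. The 3 groups did not overlap, and the fall was 0.29 ± 0.03 in set 1 and 1.27 ± 0.03 in set 2 (between the sets, adjusted p = 7.6e-40). In Huh7 ADAR fell by 0.49 ± 0.05 (adjusted p = 1.9e-09). EIF2AK2 (PKR), the kinase that stops translation on double-stranded RNA, fell in set 1 (-0.36 ± 0.04) and set 2 (-0.42 ± 0.04), and the difference between the sets (0.05 ± 0.05) was not called. In Huh7 it was not called (0.08 ± 0.09). The exonuclease ISG20 fell in set 2 (26 to 34 counts in the control and 6 to 8 in set 2, adjusted p = 4.9e-06). It was not called in set 1 or Huh7.

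In the ISG15 system the modifier and its removal enzyme went apart in set 2. ISG15 had 37.2, 34.9 and 37.1 CPM in the IMR90 control and 57.9, 55.8 and 58.3 in set 2, higher in every library (0.57 ± 0.06, adjusted p = 3.5e-14). In set 1 it was lower in every library, at 29.5, 28.3 and 30.3 CPM (-0.26 ± 0.06, adjusted p = 0.00030). In Huh7 its libraries overlapped (64.4, 59.7 and 73.5 against 76.2, 78.0 and 64.7 CPM) and it was not called. USP18, which removes ISG15 and restrains the receptor IFNAR2, fell in set 2 (-0.75 ± 0.22, adjusted p = 0.0017). It was also called in set 1 (-0.62, adjusted p = 0.012) and Huh7 (-0.42, adjusted p = 0.014), calls lost without control replicate 1 or set 1 replicate 3 (-0.46 each) and without Huh7 control replicate 3 (-0.38) or shTHBD replicate 3 (-0.25). UBA7, the enzyme that activates ISG15 and not one of the 45, fell in set 1 (-1.07 ± 0.14), set 2 (-1.79 ± 0.15) and Huh7 (-2.15 ± 0.10), from 48.5, 51.0 and 56.6 CPM to 11.2, 11.4 and 13.3 CPM in Huh7. The ligase HERC5 had 2 to 17 counts in IMR90 and was not called against control, except in set 1 without set 1 replicate 2 (-1.99), and HERC6 fell in set 2 (-0.84 ± 0.24, adjusted p = 0.0018). HERC6 was also called in set 1 (-0.68, adjusted p = 0.014), but not without control replicate 3 (-0.54) or set 1 replicate 1 (-0.58).

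Of the membrane proteins that block virus entry or release, IFITM3 fell in each comparison. It had 197.7, 189.2 and 191.5 CPM in the IMR90 control libraries, 104.9, 106.8 and 107.9 in set 1 and 143.4, 135.1 and 144.9 in set 2, groups that did not overlap. In Huh7 it fell from 258.5, 253.6 and 277.2 to 50.1, 54.6 and 44.8 CPM (-2.43 ± 0.07, adjusted p = 2.8e-24), a larger fall than in set 1 (difference of the effects 1.61 ± 0.07, adjusted p = 2.5e-21). IFITM2 had 27.6, 24.6 and 28.2 CPM in the IMR90 control and 12.4, 10.6 and 13.6 in set 2 (-1.22 ± 0.09, adjusted p = 1.0e-20). Its smaller call in set 1 (-0.23, adjusted p = 0.012) was lost without control replicate 3 (-0.19) or set 1 replicate 2 (-0.20). IFITM1 fell in set 1 (-0.96 ± 0.17) and set 2 (-0.78 ± 0.17), and neither IFITM1 nor IFITM2 passed the filter in Huh7. The IFITM genes are close copies, so reads may be split between them, and IFITM1 shares 31.63% and IFITM3 16.32% of exon bases with other genes. BST2 (tetherin), which holds budding virus at the membrane, had 18, 19 and 8 counts in the IMR90 control libraries, 24, 31 and 39 in set 1 and 3, 0 and 0 in set 2. Its fall in set 2 was called (-3.77 ± 0.71, adjusted p = 3.6e-06; -6.91 without set 2 replicate 1, which leaves set 2 at 0 counts). Its rise in set 1 (1.11, adjusted p = 0.014) was lost without control replicate 3 (0.75) or set 1 replicate 3 (0.95).

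**Figure D3:**
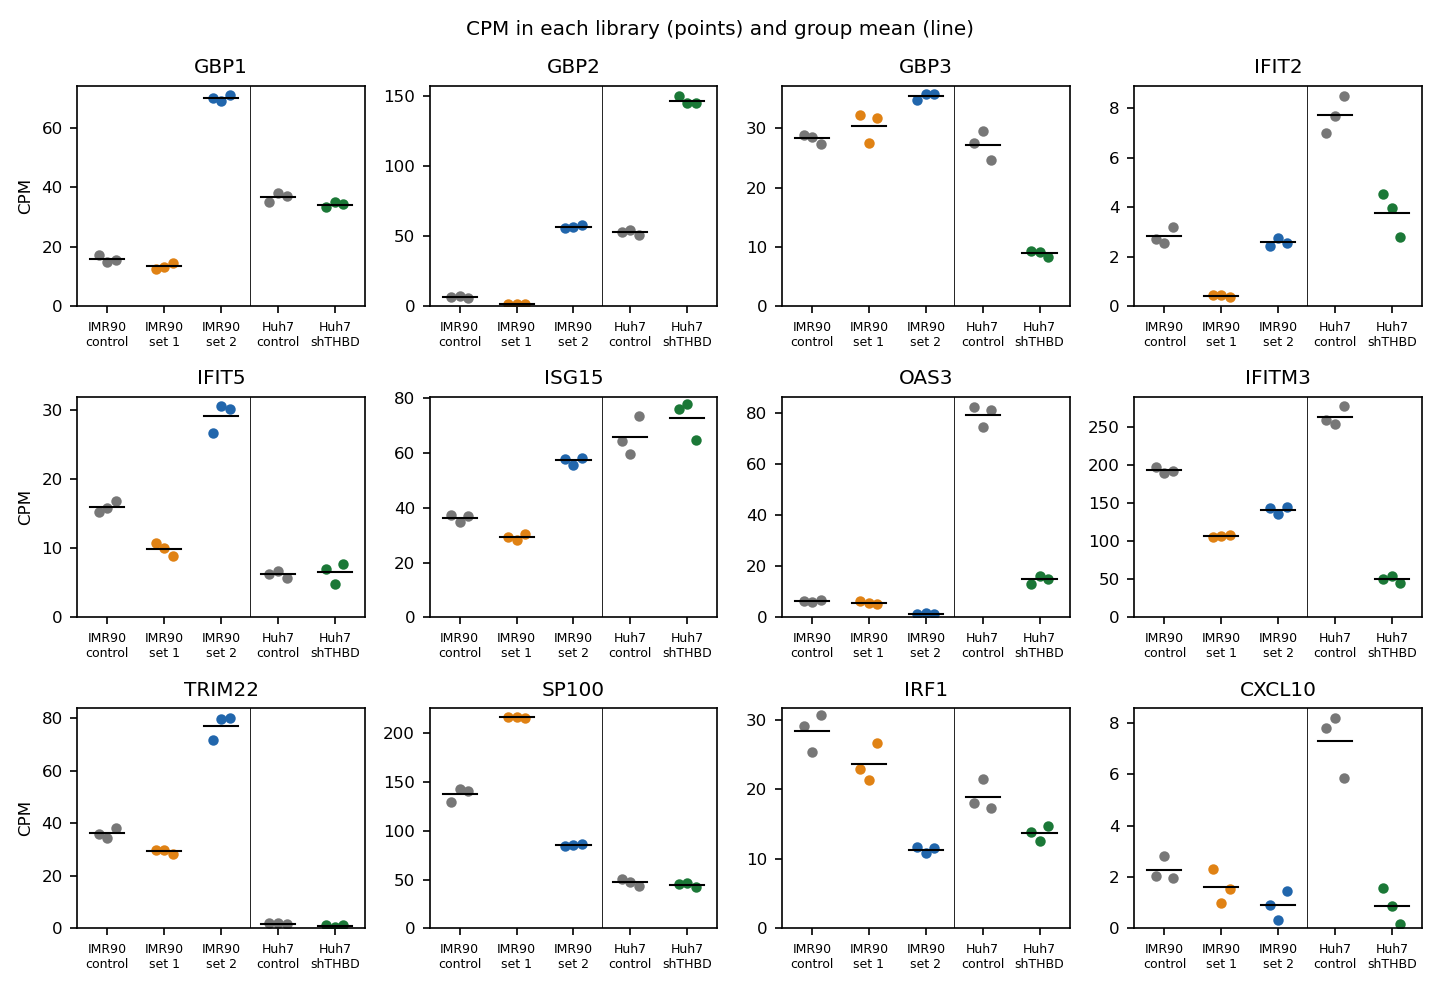
CPM of 12 members in each library (points) with the group mean (line), on axes that start at 0, for IMR90 control, set 1 and set 2 and for Huh7 control and shTHBD. GBP1, GBP2, IFIT5, ISG15 and TRIM22 lie above the control in set 2, SP100 lies above it in set 1, and in Huh7 GBP2 is higher and GBP3, OAS3, IFITM3 and CXCL10 are lower than control.

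Among the restriction factors that act inside the cell, SP100 and TRIM22 went opposite ways in the sets, and MX1 fell in both. SP100, a scaffold of nuclear PML bodies, had 130.0, 143.1 and 141.3 CPM in the IMR90 control libraries, 217.3, 217.3 and 215.3 in set 1 and 84.7, 85.5 and 86.6 in set 2. It thus rose in set 1 (0.70 ± 0.03, adjusted p = 1.6e-29) and fell in set 2 (-0.77 ± 0.04, adjusted p = 4.4e-30), with no overlap between groups, and was not called in Huh7 (-0.10 ± 0.08). TRIM22, a ubiquitin ligase active against viruses, did the reverse. It had 35.7, 34.3 and 38.3 CPM in control libraries, 29.7, 29.9 and 28.4 in set 1 and 71.6, 79.7 and 79.8 in set 2 (between the sets, -1.25 ± 0.06, adjusted p = 4.4e-31). In Huh7 TRIM22 was not called (-0.95 ± 0.42, adjusted p = 0.059), although without shTHBD replicate 3 it was (-1.29). MX1, a dynamin-like GTPase that traps viral nucleocapsids, fell in set 1 (-1.41 ± 0.35, adjusted p = 0.00050) and set 2 (-1.22 ± 0.34, adjusted p = 0.0012) from 34 to 47 counts in the control. In Huh7 MX1 fell from 53.1, 52.5 and 54.0 CPM to 29.3, 23.8 and 29.8 (-0.97 ± 0.09, adjusted p = 7.0e-11), and its relative MX2 from 94.1, 94.7 and 87.6 to 60.0, 62.2 and 58.1 CPM (-0.65 ± 0.07). SAMHD1, which hydrolyses the building blocks of DNA, fell in set 2 (-0.89 ± 0.09) and Huh7 (-0.63 ± 0.09). In set 1 it was not called (-0.19 ± 0.09, adjusted p = 0.055), but was with the filter at 5 CPM, the compared groups alone, upper-quartile scaling or without control replicate 3 (-0.20 to -0.25). CMPK2, a mitochondrial nucleotide kinase, fell in Huh7 (-1.79 ± 0.47, adjusted p = 0.0016). RSAD2 (viperin) could be tested in neither line; it had 8 to 10 counts in the IMR90 control and 0 in set 2, at least 2.77-fold lower by the same floor.

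Among the IFI genes, IFI6, a small membrane protein of mitochondria and endoplasmic reticulum, fell in set 1 (29.2, 25.9 and 26.3 against 18.0, 16.0 and 16.7 CPM) and in Huh7 (325.8, 339.0 and 400.1 against 220.0, 231.2 and 230.5 CPM), by 0.63 ± 0.08 and 0.67 ± 0.06. In set 2 it overlapped the control (0.08 ± 0.08); 23.08% of its exon bases are shared with another gene. IFI44 fell in set 1 (-0.59 ± 0.13, adjusted p = 6.0e-05) and was not called in set 2 (-0.13 ± 0.12). IFI27 followed the same order (-1.18 ± 0.34, adjusted p = 0.0021, in set 1 and 0.12 ± 0.29 in set 2). IFI35, which binds the related protein NMI, fell in Huh7 from 13.98, 13.8 and 16.8 to 3.11, 5.39 and 5.43 CPM (-1.70 ± 0.17, adjusted p = 4.7e-10). In IMR90 IFI35 had 6 to 38 counts, and its calls in set 1 (-1.15, adjusted p = 0.0069) and set 2 (-0.83, adjusted p = 0.036) depended on single libraries. Without set 1 replicate 1 the value was -0.81 (adjusted p = 0.070) and without set 1 replicate 3 it was -1.81. In set 2 the call was lost without control replicate 2 or 3 or set 2 replicate 3 (-0.60 to -0.84). The set 2 call was also lost with the DESeq2 test (-0.83) and with upper-quartile scaling (-0.76). XAF1, which antagonises the apoptosis inhibitor XIAP, had 33, 40 and 37 counts in the Huh7 control and 1, 2 and 2 in shTHBD (-4.66 ± 0.61, adjusted p = 8.2e-08). XAF1 passed the filter in Huh7 through the control libraries alone. In the annotation of the IMR90 counts, 38.32% of its exon bases are shared with another gene.

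The guanylate-binding proteins are large GTPases that assemble on pathogen membranes, and their 5 genes lie on the minus strand within 266.1 kilobases of chromosome 1 (chr1:89006679-89272804, GRCh38). In IMR90 set 2 the 3 that could be tested (GBP1, GBP2 and GBP3) were all higher, whereas in Huh7 GBP2 rose and GBP3 fell. GBP2 had 6.44, 7.39 and 5.72 CPM in the IMR90 control libraries, 1.75, 1.90 and 1.57 in set 1 and 56.3, 56.4 and 57.9 in set 2. It thus fell in set 1 (-1.84 ± 0.16, adjusted p = 7.9e-17) and rose in set 2 (3.05 ± 0.09, adjusted p = 4.2e-43), with a difference between the sets of -4.89 ± 0.11 (adjusted p = 2.1e-49). In Huh7 GBP2 rose from 53.2, 54.2 and 51.1 to 149.9, 145.4 and 144.9 CPM (1.45 ± 0.07, adjusted p = 1.0e-18), the only member that rose there. GBP1 had 17.4, 15.04 and 15.6 CPM in the IMR90 control and 70.1, 69.0 and 71.1 in set 2, higher in every library (2.05 ± 0.07, adjusted p = 2.9e-39). Its set 1 libraries, at 12.4, 13.3 and 14.4 CPM, were called lower (-0.20, adjusted p = 0.038), a call lost without control replicate 1 (-0.14) or set 1 replicate 1 (-0.15) or 2 (-0.19) and under 4 other settings. In Huh7 GBP1 was not called (-0.13 ± 0.09).

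GBP3, at the other end of the cluster from GBP5, went the opposite way to GBP2 in Huh7. It had 27.6, 29.5 and 24.7 CPM in the Huh7 control and 9.38, 9.23 and 8.32 in shTHBD (-1.63 ± 0.12, adjusted p = 1.2e-13). In IMR90 it changed little, from 28.9, 28.6 and 27.4 CPM to 34.8, 35.7 and 35.7 in set 2 (0.24 ± 0.07, adjusted p = 0.0013). Its call in set 1 (0.16, adjusted p = 0.043) was lost without any of control replicates 1, 2 and 3 or set 1 replicates 1 and 3 (0.12 to 0.17). Upper-quartile scaling (0.13) and no filter on low counts (0.16) lost it too. GBP4 was called lower in Huh7 (-1.10, adjusted p = 0.022), but not without control replicate 3 (-0.94) or shTHBD replicate 1 (-0.82). GBP5 in Huh7 had 9.50, 8.99 and 7.45 CPM in the control and 9.63, 7.45 and 7.61 in shTHBD, which overlap (-0.10 ± 0.16). The GBP genes are similar in sequence, and reads could be split between them; of the exon bases of GBP2 8.60% are shared with GBP7.

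The chemokines CXCL10 and CXCL11, ligands of the T cell receptor CXCR3, were low in IMR90 and lower in Huh7 shTHBD. CXCL10 had 7.83, 8.19 and 5.85 CPM in the Huh7 control and 1.58, 0.87 and 0.18 in shTHBD, a fall in every library with a wide spread among the low ones (-3.07 ± 0.33, adjusted p = 1.3e-09). The CXCL10 value was -3.77 without shTHBD replicate 1. In IMR90 it fell in set 2 (39, 53 and 42 counts in the control and 17, 6 and 27 in set 2, adjusted p = 0.00014). In set 1, at 42, 20 and 31 counts, it overlapped the control and was not called (-0.45 ± 0.31). CXCL11 fell in set 1 (10 to 16 counts in the control and 2 to 3 in set 1, -2.28 ± 0.68, adjusted p = 0.0031). In set 2 it had 1, 14 and 3 counts and was not called (-1.05 ± 0.56), although without set 2 replicate 2 it was (-2.56, adjusted p = 0.0034). Its call in Huh7 (-1.52, adjusted p = 0.012) was lost without control replicate 1 (-1.46) or 2 (-1.51) or shTHBD replicate 1 (-1.16) or 2 (-1.17), and without shTHBD replicate 3 the value was -2.61.

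The genes upstream of the members were examined from lists of ligands, receptors with their kinases, nucleic acid sensing, and brakes. Of 21 interferon ligands 2 were tested in IMR90 and none in Huh7. IFNE, an epithelial type I interferon, rose in set 2 (7.91, 6.21 and 6.69 against 9.38, 11.5 and 10.7 CPM, 0.52 ± 0.12, adjusted p = 0.00018) and was not called in set 1 (0.27 ± 0.13). IFNA1 had 24 to 32 counts in the control and rose in set 1 (41 to 55 counts, 0.83 ± 0.27, adjusted p = 0.0062), but was not called in set 2 (0.49 ± 0.27).

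The kinases changed in different directions. TYK2, a kinase of the type I receptor, fell in set 2 (-1.04 ± 0.04) and Huh7 (-1.20 ± 0.07), with a fall of 0.09 ± 0.04 in set 1 (adjusted p = 0.041). JAK1, which serves every interferon type, rose in Huh7 (0.55 ± 0.06) and set 2 (0.23 ± 0.03). JAK2, of the interferon gamma receptor, fell in Huh7 (-0.89 ± 0.13) and rose in set 1 (0.44 ± 0.10) and set 2 (0.35 ± 0.10). Among the receptor chains IFNAR1 rose in each comparison by 0.17 to 0.33, and IFNGR1 rose in set 1 (0.38 ± 0.06) and fell in Huh7 (-0.32 ± 0.06). IFNAR2 was called in Huh7 alone (-0.74 ± 0.27), but 78.12% of its exon bases are shared with other genes in the annotation of the IMR90 counts.

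**Figure D4:**
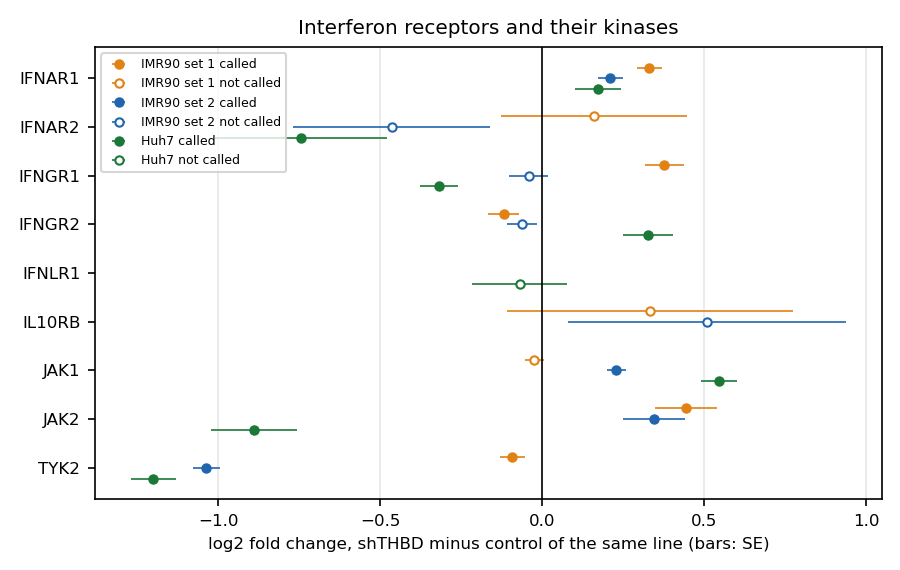
Log2 fold change with SE (shTHBD minus the control of the same line) of the interferon receptor chains and their kinases, with filled points called at an adjusted p under 0.05 and open points not called. TYK2 lies left of 0 in all comparisons, IFNAR1 lies right of 0 in all, and JAK2 lies left of 0 in Huh7 only.

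For the lists of sensing genes and brakes, the shares of all genes tested are 27.3% higher and 26.5% lower in set 1, 33.2% and 34.1% in set 2, and 25.9% and 27.3% in Huh7. Of the nucleic acid sensing list, 4 of 11 tested genes were higher and 4 lower in set 1, 3 higher and 6 lower in set 2, and 1 of 12 higher and 7 lower in Huh7. MYD88, the adaptor of most Toll-like receptors, had 45.2, 47.2 and 46.5 CPM in the IMR90 control libraries, 59.3, 56.5 and 58.4 in set 1 and 13.1, 11.7 and 12.6 in set 2, so it rose in one set (0.38 ± 0.06) and fell in the other (-1.98 ± 0.07). In Huh7 MYD88 fell by 1.55 ± 0.07. IKBKE, a kinase that activates IRF3 and IRF7, fell in set 1 (-0.47 ± 0.07), set 2 (-1.46 ± 0.08) and Huh7 (-2.05 ± 0.11). Of the brakes, 4 of 8 tested were higher and 2 lower in set 1, 2 higher and 4 lower in set 2, and 1 of 9 higher and 5 lower in Huh7. SOCS1, which inhibits JAK kinases, rose in set 1 (1.00 ± 0.10) and set 2 (1.38 ± 0.10), and was not called in Huh7. SOCS3 had 93.9, 93.0 and 92.8 CPM in the IMR90 control libraries, 212.0, 205.7 and 216.0 in set 1 and 73.0, 68.0 and 70.2 in set 2, a rise (1.24 ± 0.04) and a fall (-0.49 ± 0.04).

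Whether the members changed by different amounts in the lines was tested in a joint fit of the genes shared by both tables, where 43 members were tested. In such a difference the line, the way senescence was induced and the separate counting of the lines cannot be told apart. THBD was higher than control in set 1 and could not be checked in Huh7, so the effects compared are differences between labelled groups. The effect of set 1 was higher than that of Huh7 for 11 and lower for 9, when 47.5% of 16861 genes differed in either direction. The effect of set 2 was higher for 13 and lower for 8, when 44.0% of genes differed. Some members that reached 5 CPM in each line are named here, chosen after their values were seen: OAS3 showed no called difference between set 2 and Huh7 (0.07 ± 0.23) and a clear one between set 1 and Huh7 (2.33 ± 0.16, adjusted p = 2.0e-15). IFITM3 fell less in set 2 than in Huh7 (1.87 ± 0.07, adjusted p = 3.2e-23), and IRF1 fell more (-0.94 ± 0.15, adjusted p = 3.2e-06). The effects on IFI6 in set 1 and Huh7 differed by 0.03 ± 0.10, which was not called.

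Members with and without the ISRE core in their promoter window are counted here beside all genes tested, of which 26.5%, 34.1% and 27.3% were lower in set 1, set 2 and Huh7. The shares higher were 27.3%, 33.2% and 25.9%. In set 1, 13 of 19 tested members with the core were lower and 2 higher, and 6 of 9 without it were lower and 1 higher. In set 2, 9 of 19 with the core were lower and 4 higher, and 7 of 9 without it were lower and none higher. In Huh7, 9 of 17 with the core and 9 of 12 without it were lower, and none was higher. These are counts without a test, and the 11 members with no promoter entry are left out.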

How the data were processed

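The deposited values are counts of fragments per gene for 15 libraries. Per the submitters' processing notes, the authors trimmed reads with fastp, aligned them to GRCh38 with STAR and counted them with featureCounts. For IMR90 this was version 2.0.1 with GENCODE 38 and no strand option, per the file headers. For Huh7 the version and annotation were not given in the sources used here. Older symbols were replaced (406 in IMR90, 696 in Huh7), leaving 38759 shared symbols.

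Each line was fitted separately with edgeR 4.0.16 (R 4.3.3), using quasi-likelihood, filterByExpr, TMM scaling and Benjamini-Hochberg adjustment over all genes tested, with a call under 0.05. A joint fit compared the effects between the lines. SE values, taken as the log2 fold change divided by the root of F, are approximate. CPM and TPM divide by total counts without TMM, so their ratios differ slightly from the fold changes. Gene positions and shared exon bases come from the GENCODE 38 annotation of the IMR90 counts, and may differ in the Huh7 counts. The fits were run on simulated counts with changes planted in a small part of the well-counted genes and 1 fixed spread per fit. A much larger part of genes was called in the real data, and members with few counts were not covered by that run. Alternatives were DESeq2 1.42.0 (scaling, test), upper-quartile scaling, other filters, the compared groups alone, the replicate number as a block, and each library left out in turn.

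The members and gene lists were chosen with earlier results of these data known. Their counts beside the shares of all genes are therefore descriptions and not independent tests. Genes given in detail were THBD, all members among the transcription factors, guanylate-binding proteins and chemokines, up to 3 members of each other role and up to 2 genes of each pathway list, with the receptor chains and their kinases whole. Some genes of the lists are not reported here. Other members were added after their values were seen. For set 2 replicate 3 the description says Huh7, against 3 other labels that say IMR-90. It was kept in IMR90; without it 6 members were higher and 20 lower in set 2, and of the calls against control only that of IFI35 was lost.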

Additional observations from a re-analysis of the deposited data

Results flagged for a closer look

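For the members below, the difference between shTHBD and control libraries in IMR90 was unlike that in Huh7 by the interaction term of the joint edgeR fit. They are the largest called differences per direction over all members and over members with at least 5 CPM in each line, a choice made after their values were seen. Values are differences of log2 fold changes, IMR90 minus Huh7. The line, the way senescence was induced and the separate counting of the lines cannot be told apart in them.

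With the libraries labelled set 1, GBP2 differed by -3.30 ± 0.15 (adjusted p = 1.5e-20), as it fell in set 1 and rose in Huh7. GBP3 differed by 1.77 ± 0.13 (adjusted p = 4.9e-15) and OAS3 by 2.33 ± 0.16 (adjusted p = 2.0e-15), as GBP3 fell in Huh7 and OAS3 fell there but was not called in set 1. IFIT5 differed by -0.68 ± 0.20 (adjusted p = 0.0037), with a fall in set 1 and overlapping libraries in Huh7. BST2 (2.74 ± 0.86, adjusted p = 0.0074), OASL (2.72 ± 1.06, adjusted p = 0.033) and OAS2 (-2.41 ± 0.94, adjusted p = 0.032) rest on few counts, at most 12 for BST2 and 8 for OASL in Huh7 and 14 for OAS2 in IMR90. BST2 was low in IMR90 too, with 8 to 19 counts in the control and 24 to 39 in set 1. The calls of OASL and OAS2 were each lost when single libraries were left out (down to 2.19 and -1.86), and 1 library also moved them far the other way (OASL 5.01 without Huh7 shTHBD replicate 1, OAS2 -5.33 without set 1 replicate 1), which leaves that group at 0 counts.

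With set 2, GBP1 differed by 2.15 ± 0.11 (adjusted p = 1.8e-19), as it rose in set 2 and was not called in Huh7. IFITM3 differed by 1.87 ± 0.07 (adjusted p = 3.2e-23), with the larger fall in Huh7. IRF1 (-0.94 ± 0.15, adjusted p = 3.2e-06) and ADAR (-0.81 ± 0.06, adjusted p = 2.8e-15) fell more in set 2 than in Huh7. XAF1 (3.34 ± 1.00, adjusted p = 0.0058), OAS1 (-5.47 ± 1.17, adjusted p = 0.00019) and OAS2 (-3.30 ± 1.06, adjusted p = 0.010) had at most 16, 10 and 14 counts in any IMR90 library. OAS1 was at 0 in all of set 2, so its fitted value depends on the prior count and is no bound. The call of OAS2 was lost without IMR90 control replicate 3 (-2.78, adjusted p = 0.054), and its value was -5.32 without set 2 replicate 3, which leaves set 2 at 0 counts.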

How the results depend on the processing

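No called member changed direction under any alternative that was run. With a filter at 5 CPM, 20 members were left to test in IMR90. In set 1, 16 were lower and 2 higher, against 33.7% of all genes lower and 33.5% higher. In set 2, 9 were lower and 6 higher, against 40.0% and 40.2%. Between the sets, 6 were higher in set 1 and 10 higher in set 2, against 39.1% and 42.5%. In Huh7, 18 of 27 were lower and 1 higher, against 33.8% and 34.6%. Leaving out single libraries gave 1 to 3 members higher in set 1 (1 without control replicate 3 or set 1 replicate 3), and 22 to 24 lower. It gave 17 to 22 lower in set 2 and 20 to 22 lower in Huh7. Of the called members, 19 of 28 in set 1, 23 of 25 in set 2 and 19 of 23 in Huh7 kept their call in every setting that tested them; the others are named with their values in the report.

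Replicates of the same number did not deviate together (correlations -0.0259 to 0.0224 in IMR90 and -0.0524 to -0.0158 in Huh7). This gave no sign of pairing, but cannot exclude that libraries of the same number were prepared together. With the replicate block 3 members were higher and 25 lower in set 1, 6 and 18 in set 2, and 1 and 22 in Huh7. Members under about 20 counts per library, among them BST2, HERC5 and CXCL11 in IMR90, are limited by depth, and 9 members in each line were too low to test.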

Other observations

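Other genes known to be stimulated by interferon and not among the 45 were counted from a list of 48. In set 1, 4 of 44 tested were higher and 24 lower, in set 2, 7 and 26, and in Huh7, 5 of 43 higher and 23 lower. Of all genes tested, 26.5%, 34.1% and 27.3% were lower and 27.3%, 33.2% and 25.9% higher in set 1, set 2 and Huh7. The median log2 fold changes of the listed genes were -0.35, -0.27 and -0.34. NLRC5, an activator of MHC class I genes, stood apart in Huh7. It had 2.85, 3.35 and 3.36 CPM in the Huh7 control and 15.3, 15.7 and 16.4 in shTHBD, higher in every library (2.28 ± 0.16, adjusted p = 5.1e-14 in edgeR). In IMR90 it was not called in set 1 (0.11 ± 0.07) or set 2 (0.09 ± 0.07), and the effects in the lines differed by -2.19 ± 0.16 and -2.21 ± 0.16 (adjusted p = 5.7e-15 and 6.3e-15).

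Members too low to test in IMR90 had few counts in every library. GBP4 had none, GBP5 at most 8, OAS1, MX2, RSAD2 and IFI44L at most 10, OAS2 at most 14, CMPK2 at most 15 and XAF1 at most 16. In Huh7 RSAD2 had at most 4 counts and IFITM2 at most 16.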
